A study of Mus musculus with 2 samples.

Results

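Otx2, Otx1 and the Zic genes Zic1, Zic2, Zic4 and Zic5 were followed in i-OSKM-ESC, a mouse embryonic stem cell line, with and without the drug that switches on 4 reprogramming factors. The genes were chosen as the Otx and Zic family members that probesets of a single gene measure on the array, which gave 6 of the 19938 genes measured, read by 8 probesets. In the array labelled plus doxycycline, the cells had received doxycycline at 4 µg/mL and were collected after 24 hours. In the array labelled no doxycycline, the same line, which carries the same transgenes, had received fresh medium alone and was collected after the same interval. The line has a strain 129 background and was engineered from KH2 embryonic stem cells so that the drug turns on c-Myc, Klf4, Oct4 and a Sox2 bearing an epitope tag. The labels state neither the number of clones nor the promoter of the transgenes, and no culture of parental KH2 cells with the drug was analysed here.

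Otx proteins are homeodomain transcription factors named after the fly gene orthodenticle. In the mouse, Otx2 acts when embryonic stem cells leave the naive state for the formative and primed epiblast, where it works with Oct4 at enhancers, and it is later needed to form the head, while Otx1 acts mainly in the developing cortex and sense organs. Zic proteins carry zinc fingers of the kind found in Gli factors, the effectors of hedgehog signalling. Zic2 is expressed in the epiblast and in embryonic stem cells, Zic1 and Zic4 pattern the cerebellum, and Zic5 acts in the neural tube and neural crest.

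Each group held 1 array, so the differences below have no replicate error and no p-value, and precision is limited by the number of arrays. Values are log2 values from RMA, the summary the authors deposited, and a difference is plus doxycycline minus no doxycycline. RMA values of different probesets are not on a common scale of abundance, so levels were compared between the arrays and not between genes. A gene passed the expression filter if its value on at least 1 array reached 6.48, the median over the whole deposited table, and it was called lower or higher when it passed and differed at least 2-fold. By this rule 86 of the 11191 genes that passed were lower, or 0.768%, and 103 were higher, or 0.920%. Of the 12 embryonic stem cell markers, 11 passed the filter, among them Nanog (12.06 with doxycycline and 12.18 without), and the label of the cells was not contradicted. The labels of the arrays were less well checked, because Sox2 was 2.01-fold lower with doxycycline (10.88 against 11.89), while Pou5f1, which encodes Oct4, had a difference of 0.41, Klf4 of 0.43 and Myc of 0.35. The labels do not say whether these probesets read the transgenes, and every direction below rests on the array labels.

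Otx2 was the member that differed most. Its value was 5.81 with doxycycline and 7.11 without, a log2 difference of -1.30, or a level 2.47-fold lower. On the linear scale this was 56.0 against 138 signal units. Otx2 was the only one of the 6 genes that was called. It passed the expression filter only through the array without doxycycline, and its value with the drug lay below the filter, where the table, which gives no detection call, does not tell a low level from background. The fold therefore holds for these 2 deposited values and not beyond them. Of the 11191 genes that passed the filter, 24 had a more negative difference. Among the 997 genes in its bin of mean expression, the robust SD of the differences was 0.28 around a median of 0.06, a spread between genes and not between cultures. When an offset of 32 was added before taking log2, which damps differences of dim genes, the difference of Otx2 was -0.95, under 2-fold. In a bulk sample, fewer cells with a transcript and less of it per cell cannot be told apart.

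RefSeq (GRCm38.p6) gives Otx2 several transcription starts on the minus strand of chromosome 14, and the array value does not say which of them the probes follow. The windows of 250 bases before and 50 after 3 of these starts are shown because Otx2 carries the main difference, with that of Zic5, a member on the same chromosome that was not called, for comparison. Capitals mark matches, on either strand, to short forms of the motifs of the induced factors and of the families themselves: ATGCNAAT for the octamer that Oct4 reads, CATTGTT for Sox, GGGNGTGG for Klf, CACGTG for the E-box of Myc, GGATTA for Otx and CAGCAGG for Zic.
Otx2, distal start, chr14:48667595-48667894: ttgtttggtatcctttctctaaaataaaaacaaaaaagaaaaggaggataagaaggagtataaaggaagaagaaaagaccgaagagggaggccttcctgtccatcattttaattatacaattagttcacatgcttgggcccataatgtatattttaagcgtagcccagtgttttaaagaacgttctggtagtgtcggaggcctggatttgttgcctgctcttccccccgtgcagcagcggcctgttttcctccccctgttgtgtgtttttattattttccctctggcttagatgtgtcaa
Otx2, middle start, chr14:48665060-48665359: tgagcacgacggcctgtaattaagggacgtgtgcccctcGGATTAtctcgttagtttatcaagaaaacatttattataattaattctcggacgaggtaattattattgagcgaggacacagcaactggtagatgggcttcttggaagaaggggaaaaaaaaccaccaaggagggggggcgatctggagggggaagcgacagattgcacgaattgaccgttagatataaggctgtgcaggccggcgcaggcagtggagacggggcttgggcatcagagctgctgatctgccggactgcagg
Otx2, proximal start, chr14:48662685-48662984: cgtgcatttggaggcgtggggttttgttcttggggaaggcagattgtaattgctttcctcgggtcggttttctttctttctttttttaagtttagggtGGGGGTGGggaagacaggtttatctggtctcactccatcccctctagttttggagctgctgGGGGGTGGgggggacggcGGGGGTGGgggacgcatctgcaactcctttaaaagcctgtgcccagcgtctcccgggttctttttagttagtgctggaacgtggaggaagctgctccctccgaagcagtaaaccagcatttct
Zic5, minus strand, chr14:122465609-122465908: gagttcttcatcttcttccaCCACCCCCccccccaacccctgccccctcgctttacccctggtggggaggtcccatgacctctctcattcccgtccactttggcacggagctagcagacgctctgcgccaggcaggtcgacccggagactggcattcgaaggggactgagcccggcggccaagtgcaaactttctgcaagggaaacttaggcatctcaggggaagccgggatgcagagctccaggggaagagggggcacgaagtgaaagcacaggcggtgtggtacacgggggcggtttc

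The proximal Otx2 window held 3 matches to the Klf form, at 152, 91 and 73 bases before the start, and the Zic5 window held 1, on the other strand and 230 bases before its start. At least 1 match to that form occurs in 17.6% of the 32851 promoter windows of the same length, and in 19.7% of genes. The share of windows with 3 matches was not counted. The middle Otx2 window held 1 match to the Otx form, 211 bases before the start, a form present in 7.06% of windows. The distal window and the remaining Otx2 window, which overlaps it, held no match to any of the 6 forms. The Zic1 window held 1 E-box, 98 bases before the start (7.15% of windows), and the Zic4 window held no match. None of the 7 windows, which cover Otx2, Zic1, Zic4 and Zic5, held the octamer (3.15% of windows), the Sox form (3.78%) or the Zic form (10.5%). In base composition the windows ranged from 41.7% G and C at the distal Otx2 start to 65.3% at Zic1, with 62.7% at Zic5. These matches describe the letters in the windows and were not tied to binding.

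Zic2 was lower by less than 2-fold. Its value was 6.40 with doxycycline and 6.95 without, a difference of -0.55, or a level 1.46-fold lower. Zic2 shared its expression bin with Otx2, so the same robust SD of 0.28 applies to it. Of the genes that passed the filter, 492, or 4.40%, had a more negative difference. Like Otx2, Zic2 passed the filter through the array without doxycycline alone, so a lower value with the drug was favoured among genes that pass this way. At a threshold of 1.5-fold, which 3.80% of genes passed downward and 3.24% upward, Zic2 was still not called, and Otx2 remained the 1 member called. The difference of Zic2 lay between -0.59 and -0.42 under the alternatives run.

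Zic5, the neighbour of Zic2 on chromosome 14, did not go with it. Its mean value was 7.74 with doxycycline and 7.64 without, a difference of 0.10 beside a robust SD of 0.27 in its bin. Its 2 probesets differed in sign. Probeset 10422504 had 7.37 with doxycycline and 7.11 without, a difference of 0.26, and probeset 10376241 had 8.11 and 8.17, a difference of -0.06. All 6 named probesets nearest to the first in identifier order belong to genes of chromosome 14, where Zic5 lies, whereas all 6 nearest to the second belong to genes of chromosome 11. Whether the second reads Zic5 transcripts was not tested, so the direction of Zic5 rests on the choice of probeset.

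**Figure D1:**
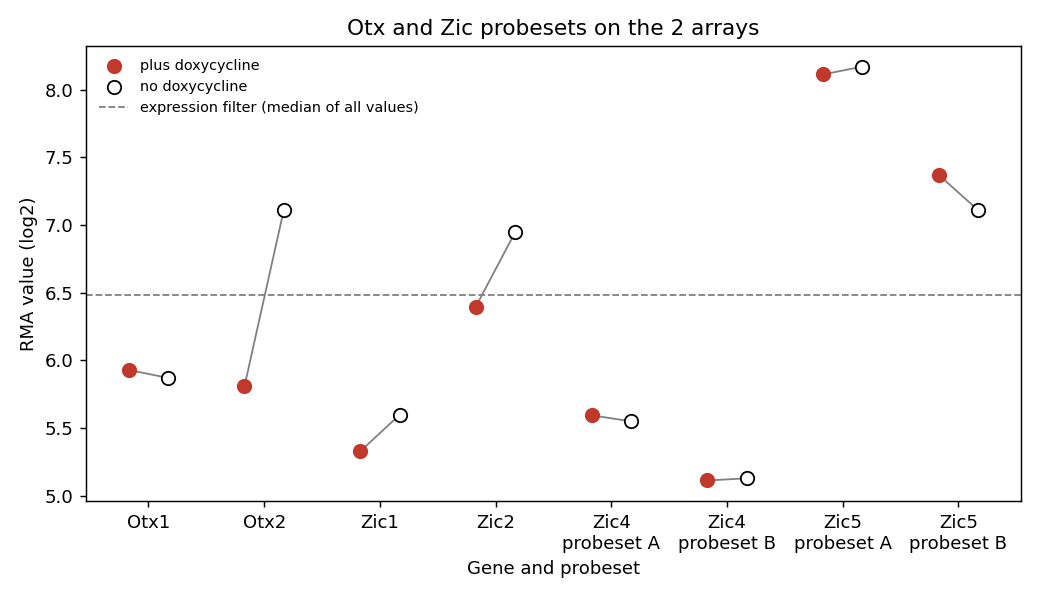
RMA values (log2, vertical axis) of the 8 probesets of the Otx and Zic genes, with the array labelled plus doxycycline (filled red) left of the array labelled no doxycycline (open) for each, joined by a line, 1 array a group. Otx2 (5.81 against 7.11) and Zic2 (6.40 against 6.95) cross the expression filter of 6.48 (dashed), the probesets of Otx1, Zic1 and Zic4 lie below it and those of Zic5 above it. Probesets A and B of a gene are in identifier order.

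The remaining genes lay below the filter on both arrays, so that the same limit applies to their values. Otx1 had 5.93 with doxycycline and 5.87 without, a difference of 0.06. Zic1 had 5.33 with doxycycline and 5.60 without, a difference of -0.27 beside a robust SD of 0.23 in its bin. Zic4, which lies next to Zic1 on chromosome 9, had 5.35 and 5.34, a difference of 0.01. Its probesets had differences of 0.04 (probeset 10554140, mostly near genes of chromosome 7 in identifier order) and -0.02 (probeset 10587782, mostly near genes of chromosome 9). The differences of Otx1 and Zic4 changed sign between settings, from -0.04 to 0.06 for Otx1 and from -0.08 to 0.04 for Zic4, so no direction is given for these genes.

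Across the 6 genes the median difference was -0.13, against 0.01 over all 19938 genes, with 3 negative and 3 positive values. Zic genes sit close together in the genome as pairs of paralogs. In the deposited values Zic2 at -0.55 was paired with Zic5 at 0.10, with 1 unmeasured gene between them. Zic1 at -0.27 was paired with Zic4 at 0.01, with 0 between. No test of the difference within a pair was possible. In the gene order, used here only to find neighbours, the nearest measured gene on the other side of Zic2 was Pcca, with 1 unmeasured gene between. Pcca, a subunit gene of mitochondrial propionyl-CoA carboxylase, had a difference of -0.54 (7.52 against 8.07). The nearest measured genes beside Otx2 were Tmem260 at -0.40, with 2 unmeasured genes between them, and Exoc5 at -0.09, with 11 between. Exoc5 is a subunit of the exocyst complex that tethers vesicles. Otx1 lay between Wdpcp at -0.01, which lay below the filter, and Ehbp1 at 0.16, with 4 and 1 unmeasured genes between. Beyond Zic5 came the noncoding gene Gm5089 at 0.57, which lay below the filter, beyond Zic1 came Tbc1d2b at -0.41, and beyond Zic4 came Plscr1 at 0.06. Unmeasured genes lay between in these cases too, 1 for Gm5089, 15 for Tbc1d2b and 8 for Plscr1.

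**Figure D2:**
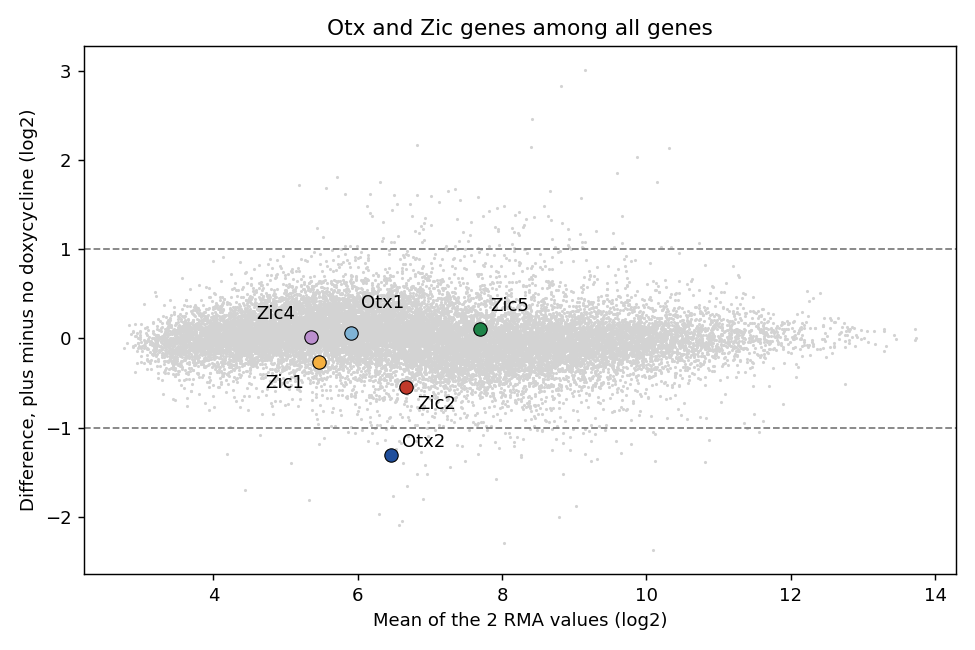
Difference between the arrays (log2, plus minus no doxycycline, vertical axis) against the mean of both RMA values (log2, horizontal axis) for 19938 genes (grey) and the 6 Otx and Zic genes (coloured), with dashed lines at 2-fold. Otx2 at -1.30 lies beyond the lower line, Zic2 at -0.55 lies between it and 0, and the other 4 lie between -0.27 and 0.10.

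The genes whose pair of values came closest to a member's were found by the Euclidean distance in the plane of both log2 values, over 2 arrays. For Otx2 they were Smarca1, which encodes a chromatin remodelling ATPase, at a distance of 0.04 (5.85 against 7.09), Tafa4 at 0.11 and Khdc3, a maternal-effect gene of the oocyte, at 0.16. For Zic2 they were Borcs7, Senp8 and Ramp3, the farthest at 0.044, and for Zic5 they were Magef1, Tmod2 and Erp29, the farthest at 0.016. Among the genes below the filter they were Mrvi1, 4933405L10Rik and Cmya5 for Otx1, the farthest at 0.011. They were Gpr55, Ccdc42 and Spopfm2 for Zic1, the farthest at 0.024, and 2810459M11Rik, Tbc1d30 and Olfr215 for Zic4, the farthest at 0.011. Only 2 arrays enter these distances, and many genes share a like pair of values by their position alone.

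Relatives of the Otx factors were examined next, beside shares of 0.768% called lower and 0.920% called higher over all genes that passed. Of 16 genes for paired-like homeodomain proteins, 13 were measured, 4 passed the filter and 0 were called in either direction. Their median was 0.03. Prrx2, which acts in limb and craniofacial mesenchyme, had a difference of -0.59, Gsc2 of 0.35 and the organiser gene Gsc of -0.08. Crx, the Otx paralog of photoreceptors, lay below the filter at 5.07 on both arrays.

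Among the relatives and the pathway of the Zic factors no gene that passed the filter was called. Over all genes that passed, 0.768% were called lower and 0.920% higher, so lists this short would hold few called genes, if any. All 6 Gli and Glis genes passed the filter, with 0 called and a median of -0.01. Glis3 had the largest difference, 0.65 (6.56 against 5.91), while Gli2, an activator of the hedgehog response, had -0.36 and Glis1 had 0.36. In the hedgehog list 12 of 13 genes were measured, 8 passed the filter, 0 were called and the median was 0.03. Smo, the transducer of the signal, had -0.56 (9.08 against 9.64), Ptch1, its receptor and a target of the pathway, had -0.53, and the co-receptor gene Boc had 0.41. Hhip, which encodes a hedgehog-binding inhibitor and was named after its value was seen, had the largest difference of the list, 0.80, but lay below the filter on both arrays (6.29 against 5.49). All 13 genes of the NuRD list, a deacetylase and remodelling complex whose subunit Mbd3 has been linked to Zic2 in mouse embryonic stem cells, passed the filter with 0 called. Their median was -0.08, with Chd3 at -0.43, Mbd3 at -0.35 and Hdac2 at 0.30.

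Lists for the states between which Otx2 acts were read next, chosen, like the other lists, with earlier results of these data known. The counts of called genes in them are therefore descriptive and were not tested. In the list of primed and formative epiblast genes, of which Otx2 and the Zic genes were left out, 23 of 24 were measured and 18 passed the filter. Of these 18, 3 were called lower and 0 higher, against the background of 0.768% and 0.920%. The lower genes were Dnmt3a, a de novo DNA methyltransferase, at 3.68-fold (8.08 against 9.96), its cofactor Dnmt3l at 2.46-fold (8.50 against 9.80) and Tcf15, a basic helix-loop-helix factor, at 2.15-fold (8.39 against 9.50). The median of the 23 was -0.14, and 13 of the 18 that passed had negative differences. Further genes of the list were named after their values were seen. Utf1, a chromatin-associated factor of pluripotent cells, had -0.95, the Nodal co-receptor gene Tdgf1 had -0.73, Sox4 had -0.58, Cldn6 -0.52 and Etv4 -0.45. Utf1 and Tdgf1 are also among the embryonic stem cell markers. These 5 genes all had negative differences, whereas 5 of the 18 that passed had positive ones, the largest that of Fst at 0.27. Among markers of the formative epiblast, Fgf5 lay below the filter at 6.21 with doxycycline and 6.13 without, and Pou3f1 had 7.09 and 7.07.

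The naive list had 20 measured genes, 19 of which passed the filter. Of these, 3 were called lower and 1 higher, against 0.768% and 0.920% over all genes that passed. The median over the 20, which include the induced factor Klf4 at 0.43, was -0.22. Klf5 was 2.61-fold lower, Klf2 2.60-fold lower and the homeobox gene Gbx2 2.25-fold lower, while Tcl1, which enhances Akt signalling, was 2.30-fold higher. Each list thus held 3 genes called lower. Gbx2 also belongs to the list of anterior and forebrain regulators, since Otx2 and Gbx2 oppose each other at the boundary of midbrain and hindbrain, and here the values of both were lower, Otx2 at -1.30 and Gbx2 at -1.17. En2, another gene of that boundary, was 2.09-fold lower (5.66 against 6.72), but it passed the filter only through the array without doxycycline and lay below it with the drug, as Otx2 did. These were the 2 genes called in the anterior list, against the same shares over all genes. In that list 19 of 20 were measured, 8 passed the filter and the median over the 19 was 0.12. Over the 8 that passed, the median was -0.39, and the sign thus depended on the filter.

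The early neural and neural crest list, which covers tissues where Zic factors act later, had 18 of 19 genes measured and 9 that passed the filter. Of these, 2 were called higher and 0 lower, against 0.920% and 0.768% over all genes that passed. The median of the 18 was 0.18. The called genes were those for the neuronal cytoskeleton proteins Map2, 2.52-fold higher (8.04 against 6.71), and Tubb3, 2.41-fold higher (8.94 against 7.67). Among those not called, the regulator Olig2 had the largest difference, -0.78, while the regulators Msx1 and Pax7 had 0.53 and 0.51. Of the 9 that passed, 6 had positive and 3 negative differences.

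**Figure D3:**
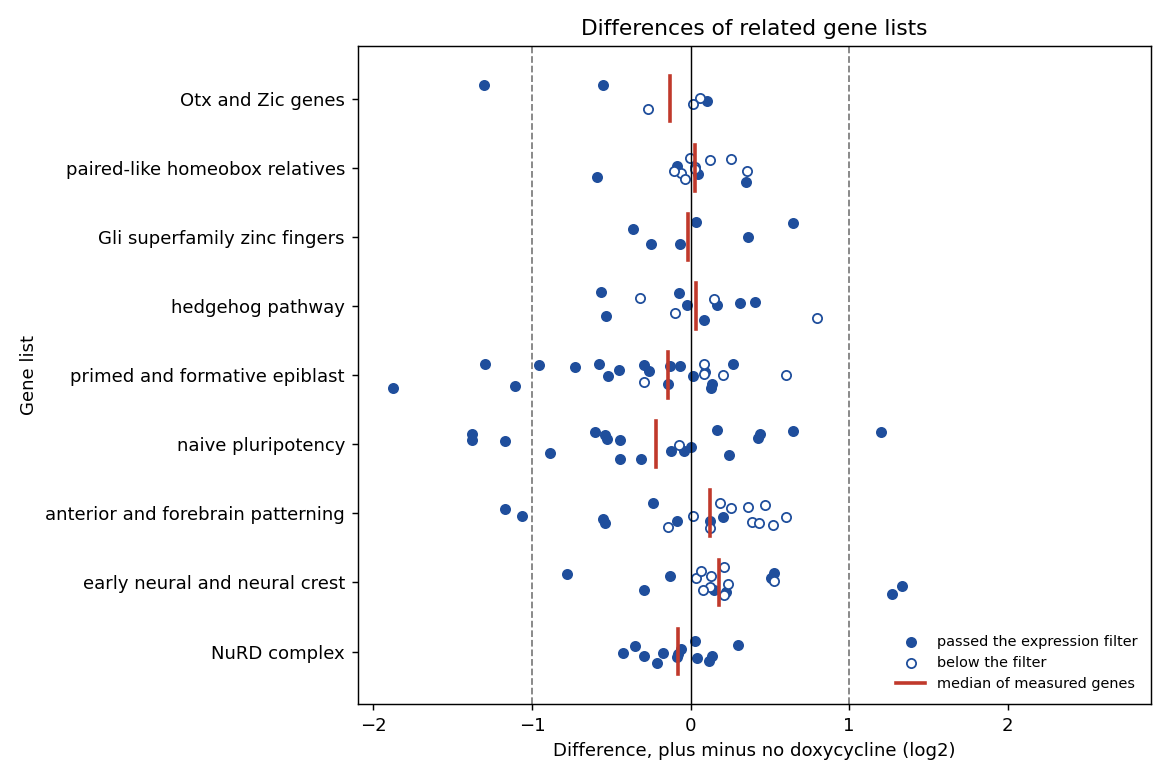
Difference between the arrays (log2, plus minus no doxycycline, horizontal axis) for each measured gene of the Otx and Zic group and of 8 related lists (rows), filled where the gene passed the expression filter, with the median of measured genes in red and dashed lines at 2-fold. Points beyond the lower line belong to the Otx and Zic group, the primed, naive and anterior lists, with none in the homeobox, Gli, hedgehog or NuRD rows; points are spread vertically for visibility.

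Markers of other cell types were read beside these values, with 0.768% of all genes that passed called lower and 0.920% higher. Of 12 fibroblast and feeder markers, all measured, 7 passed the filter and 0 were called. Their median was 0.26, and their summed linear signal was 1178 with doxycycline and 976 without. The largest differences were those of Fbln2 at 0.52, Col1a2 at 0.50 and Col1a1 at 0.45. These 3 were positive, and of the 7 that passed, 5 had positive and 2 negative differences. Of 10 primitive endoderm markers 9 passed the filter, 0 were called and the median was -0.06, with sums of 1806 and 1702. Pdgfra had -0.43, Lama1 0.34 and Dab2 -0.33. Of 10 trophectoderm markers 5 passed the filter and the median was 0.08, with sums of 2970 with doxycycline and 1614 without. Krt8, the 1 called gene, was 3.36-fold higher, and without it the sums of the other 9 markers were 896 and 997. The sums add signals of probesets that share no scale of abundance, so a bright gene can set them. Of the 12 embryonic stem cell markers 11 passed the filter, 1 was called lower, the induced factor Sox2, and 0 higher. Of these 11, 3 had positive and 8 negative differences. The 12 markers had a median of -0.38 and sums of 28765 with doxycycline and 37076 without. The part of cell composition in the difference of Otx2 was not tested.

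**Figure D4:**
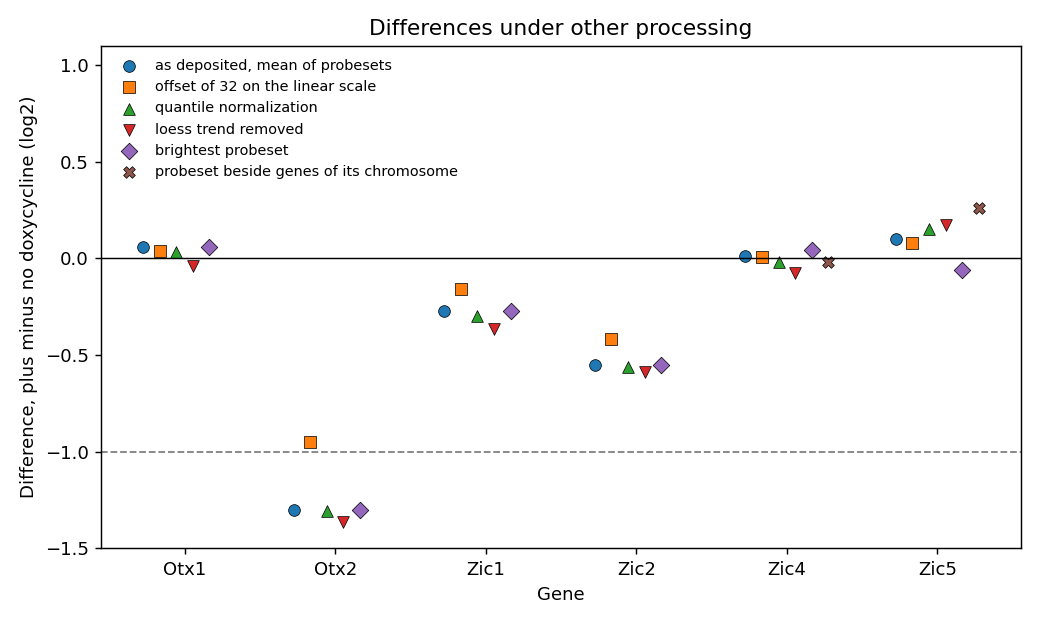
Difference between the arrays (log2, plus minus no doxycycline, vertical axis) of each Otx and Zic gene under the deposited values and each alternative processing (symbols), with the dashed line at 2-fold lower. Otx2 lies between -1.37 and -0.95 and Zic2 between -0.59 and -0.42. For these 2 genes the offset and the brightest probeset could not change the sign. The symbols of Otx1, Zic4 and Zic5 fall on either side of 0.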

How the data were processed

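RNA of 1 culture with and 1 without doxycycline was measured on 2 whole-transcript arrays, from 300 ng of total RNA each, per the labels' protocols. The authors deposited 1 log2 value per probeset and array, made with Affymetrix Expression Console and RMA per the submitters' processing notes; which versions, genome build or annotation they used is not given in the sources. RMA equalises the arrays and hides a shift common to most transcripts, and it compresses differences of dim probesets.

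Of 35556 probesets, 21789 are assigned to exactly 1 gene in the platform annotation, and a gene's value was the mean of these. No test was possible with 1 array a group. Spread was described by the robust SD (1.4826 times the median absolute deviation) of the differences in 20 bins of mean expression. Named are all members, the called genes of each list or, where none was called, up to 3 with the largest difference among those that passed the filter, Crx, Mbd3, the induced factors, the 3 nearest genes in both values and chromosomal neighbours. Nanog, Olig2, Msx1, Pax7, Fgf5, Pou3f1, Hhip, Utf1, Tdgf1, Sox4, Cldn6, Etv4 and Fst were added after their values were seen. The members and lists were chosen with earlier results of these data known. Alternatives were an offset of 32, quantile normalization, a loess trend removed (span 0.3), the brightest probeset, other filters and a 1.5-fold threshold. The steps that make the calls were run on simulated differences as a check of the code, which measures no error between cultures. Promoter windows and gene order came from RefSeq GRCm38.p6. The tools were pandas 2.3.3 and NumPy 2.4.6 under Python 3.11.15, with matplotlib 3.10.9 for figures and statsmodels 0.14.6 for loess.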

Additional observations from a re-analysis of the deposited data

How the results depend on the processing

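The difference of Otx2 lay between -1.37 and -0.95 under the alternatives run, and that of Zic2 between -0.59 and -0.42. Each has 1 probeset, so the brightest probeset returned the main value, and an offset shrinks a difference without changing its sign. Their signs could change only with quantile normalization (-1.31 for Otx2 and -0.56 for Zic2) or the loess trend removed (-1.37 and -0.59). The call of Otx2 was lost with the offset of 32 on the linear scale (-0.95), which damps dim genes, and with a filter at the 75th percentile of all values, which Otx2 does not reach, so that 0 of the 6 genes were then lower. Over all genes, 49 were lower and 66 higher with the offset, 52 and 57 with the stricter filter, and 425 and 363 at 1.5-fold. Using only the single probeset of Zic5 or Zic4 that sits near genes of its own chromosome, chosen after seeing the data, gave 0.26 and -0.02. Restricting lists to genes that passed the filter moved the median to -0.55 for the 3 Otx and Zic genes left, a value set by the selection, since Otx2 and Zic2 pass only through the array without doxycycline. It moved the median to -0.28 for the primed list, -0.39 for the anterior list and 0.42 for the fibroblast list. The fibroblast median was 0.12 with the offset, and the paired-like median was -0.067 with the loess trend removed. No paired analysis was possible because each group has 1 array. Signal over background could not be judged, since no detection call was given for the dim genes Otx1, Zic1 and Zic4 or for the value of Otx2 with doxycycline.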
